A study of Homo sapiens with 4 samples.

Results

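The 10 mRNAs described here encode the AKT kinases and the core of the mTORC1 pathway: AKT1, AKT2, TSC1, TSC2, RHEB, MTOR, RPTOR, MLST8, RPS6KB1 and EIF4EBP1. They were taken by gene symbol from tables of 44715 symbols, and each of the 10 was found. The list was set with earlier results of these data known. RNA immunoprecipitation followed by sequencing was done in HEK293T, a cell line of human embryonic kidney origin that carries the SV40 large T antigen. Native lysates were incubated with an antibody against PHGDH, the enzyme of the first step of serine synthesis, or with an IgG control antibody, and the beads were washed in 1 M NaCl. There were 2 libraries per antibody, described in the series as biological replicates, and no genotype or drug differed between them. The comparison asks which mRNAs were recovered with PHGDH above the level recovered with IgG. No input RNA library was analysed here, so a level is the recovery in a precipitate and not the abundance in the cell.

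AKT kinases act downstream of growth factor receptors and PI3-kinase. AKT phosphorylates and inhibits the TSC complex, which otherwise keeps the small GTPase RHEB in its inactive form, and active RHEB switches on the mTORC1 kinase at the lysosome. mTORC1 promotes protein synthesis through the ribosomal S6 kinase and the 4E-BP translation repressors, and restrains autophagy when nutrients are plentiful.

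Reads assigned to genes numbered from 1216477 in anti-PHGDH replicate 2 to 3875746 in IgG replicate 1, so 1 read was worth between 0.258 and 0.822 CPM, the counts scaled to a common total per library. IgG replicate 1 was the deepest library and listed 4148 genes above 0, against 14518 to 16767 in the other 3. That library had no read for 61.9% of the 9524 genes tested. Mitochondrially encoded genes took 28.8% of the reads in anti-PHGDH replicate 1, 8.69% in replicate 2, and 3.87% and 3.37% in IgG replicates 1 and 2. The mRNA of the target, PHGDH, was recovered at 6550.2 and 1531 CPM by its antibody, against 0 and 461 CPM by IgG. Of 7 transcripts that mark HEK293T cells, 3 (KRT8, INA and PAX2) were at 0 in IgG replicate 1 and each of the 7 was above 0 in the other libraries, where INA and PAX2 did not exceed 6.24 CPM. Among 6 markers of other cell types, the summed level did not exceed 1.78 CPM in any library. Values below are CPM in the order anti-PHGDH 1, anti-PHGDH 2, IgG 1, IgG 2 unless stated. CPM is not divided by transcript length, so levels are compared between libraries and not between genes.

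The data show no member of the pathway past the test's threshold, and they fall into groups by pattern. AKT1, AKT2 and TSC1 exceeded each IgG library at least 2-fold on CPM + 1 in both precipitates with the PHGDH antibody, as did 9.30% of the genes tested. AKT1 passed the filter on low values through those precipitates alone, which fixed its direction. MLST8 and EIF4EBP1 were higher in both without reaching that fold in every pair. Both precipitates lay above both controls for 38.3% of the genes tested. TSC2, RHEB and RPS6KB1 were far above the other 3 libraries in IgG replicate 1. That library was at least 2-fold above each other library for 12.2% of the genes tested. MTOR and RPTOR differed little among the libraries other than IgG replicate 1.

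**Figure D1:**
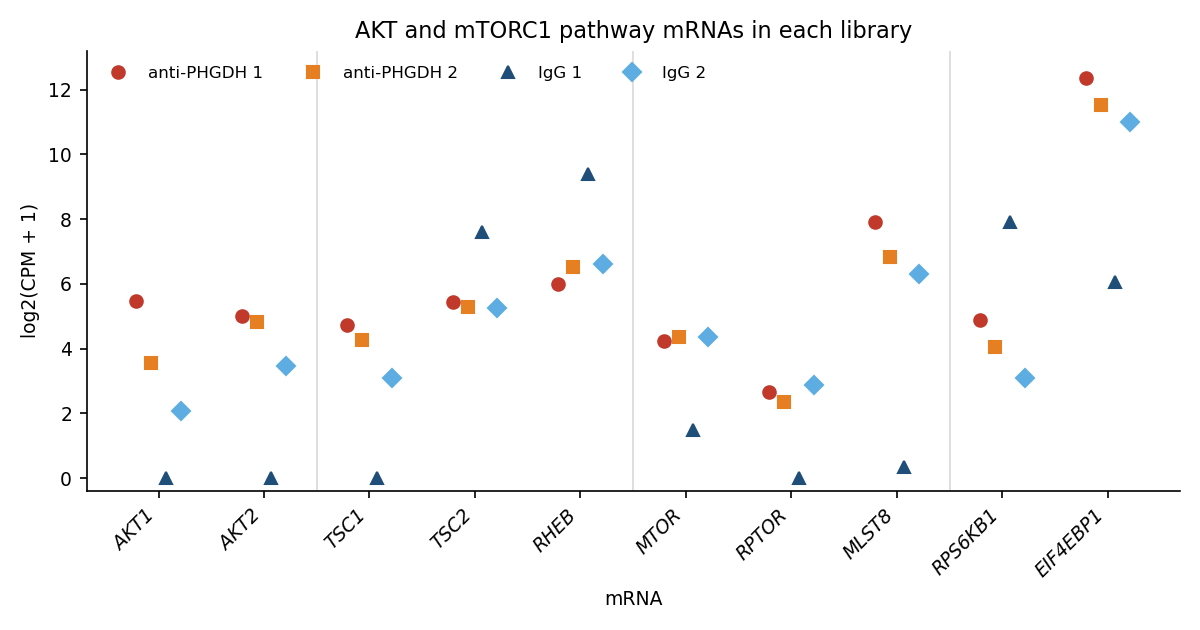
Level of each of the 10 mRNAs as log2(CPM + 1) in the 2 anti-PHGDH and the 2 IgG libraries, 1 symbol per library, with grey lines between the kinases, the TSC and RHEB genes, the mTORC1 subunits and the substrates. IgG 1 is at 0 for AKT1, AKT2, TSC1 and RPTOR and is the highest library for TSC2, RHEB and RPS6KB1.

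AKT1 (chromosome 14, 104769349 to 104795748, GRCh38.p14) encodes the most widely expressed of the AKT serine/threonine kinases. It was recovered at 43.7 and 10.7 CPM by the PHGDH antibody, against 0 and 3.17 CPM by IgG. These values rest on 147, 13, 0 and 5 reads. Both precipitates with anti-PHGDH lay above both controls, but the anti-PHGDH libraries themselves differed 4.09-fold (95% exact interval 2.32 to 7.86, counting error only). The log2 fold change on the log2(CPM + 1) scale was 3.48 (SE 2.36; limma adjusted p = 0.677), 1.56 above the median of all genes tested. AKT1 passed the filter on low values through the anti-PHGDH libraries alone, so its direction was fixed by its passing.

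AKT2 (chromosome 19, 40230317 to 40285345), the AKT kinase best known from insulin-stimulated glucose uptake, was recovered at 31.2 and 27.1 CPM by the PHGDH antibody, against 0 and 10.1 CPM by IgG. The 2 anti-PHGDH libraries were close, with a mean of 29.2 ± 2.88 CPM (SD, n = 2), and both lay above both controls. The fit gave AKT2 a log2 fold change of 3.17 (SE 2.69; limma adjusted p = 0.677). Leaving out IgG replicate 1 gave log2 fold changes of 1.43 for AKT2 and 2.46 for AKT1, with limma adjusted p = 0.643 and 0.0881. For AKT2 the direction was thus the same against IgG replicate 2 alone, where it rests on 16 reads. That of AKT1, with 5 reads there, was fixed by the filter and adds nothing.

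TSC1 and TSC2 encode hamartin and tuberin, the scaffold and the GTPase-activating subunit of the complex that inactivates RHEB. TSC1 (chromosome 9, 132891349 to 132945378) was recovered at 25.3 and 18.1 CPM by the PHGDH antibody, against 0 and 7.60 CPM by IgG, and the groups did not overlap. The fit gave TSC1 a log2 fold change of 2.93 (SE 2.55; limma adjusted p = 0.677), or 1.38 in the absence of IgG replicate 1. TSC2 (chromosome 16, 2047985 to 2089491) was recovered at 42.5 and 37.8 CPM by the PHGDH antibody, against 194 and 37.4 CPM by IgG. Its level in the precipitates with anti-PHGDH was that of IgG replicate 2, and the IgG libraries differed 5.18-fold, with replicate 1 the higher. The log2 fold change of -1.07 (SE 1.90; limma adjusted p = 0.709) became 0.099 without IgG replicate 1. The mRNAs of the 2 partners of this complex thus stood on opposite sides of 0 with all libraries and both above 0 without IgG replicate 1; the difference between them was not tested.

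RHEB (chromosome 7, 151466012 to 151519895), the GTPase that activates mTORC1, was recovered at 63.3 and 90.4 CPM by the PHGDH antibody, against 672 and 96.9 CPM by IgG. Of the 10, RHEB alone had both values with the PHGDH antibody below both IgG values, by 1.07-fold on CPM + 1 between the nearest libraries. The fit gave RHEB a log2 fold change of -1.74 (SE 1.61; limma adjusted p = 0.677), or -0.35 in the absence of IgG replicate 1. The 672 CPM of IgG replicate 1 are 2605 reads, where the CPM of IgG replicate 2 would give 375 at that depth. The RHEB pseudogene RHEBP1 held at most 1 read in any library.

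MTOR encodes the kinase itself, RPTOR encodes raptor, which brings substrates to mTORC1, and MLST8 encodes a WD-repeat subunit shared by mTORC1 and mTORC2. MTOR (chromosome 1, 11106535 to 11262551) was recovered at 17.8 and 19.7 CPM by the PHGDH antibody, against 1.81 and 19.6 CPM by IgG. The libraries other than IgG replicate 1 thus gave nearly the same MTOR level, and the IgG libraries differed 10.9-fold, with replicate 1 the lower. RPTOR (chromosome 17, 80544838 to 80966368) was at 5.35, 4.11, 0 and 6.33 CPM, from 18, 5, 0 and 10 reads. The log2 fold changes of 1.38 for MTOR (SE 2.70; limma adjusted p = 0.728) and 1.07 for RPTOR (SE 1.51; limma adjusted p = 0.677) became -0.062 and -0.36 without IgG replicate 1. Both were below the median of all genes tested, and both turned negative after quantile normalization (-0.79 and -0.81).

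MLST8 (chromosome 16, 2205454 to 2209453) differed from MTOR and RPTOR in its pattern. It was recovered at 237 and 112 CPM by the PHGDH antibody, against 0.258 and 78.5 CPM by IgG, so IgG replicate 1 held 1 read where the CPM of IgG replicate 2 would give 304. Both anti-PHGDH libraries lay above both controls, the nearest pair by 1.42-fold on CPM + 1. Its log2 fold change of 4.04 (SE 2.07; limma adjusted p = 0.677) was the highest of the 10 and was 1.04 in the absence of IgG replicate 1. BRICD5, which overlaps the MLST8 locus, held at most 10 reads in any library.

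RPS6KB1 encodes the ribosomal S6 kinase p70S6K, and EIF4EBP1 encodes 4E-BP1, the repressor that releases the cap-binding factor eIF4E when mTORC1 phosphorylates it. RPS6KB1 (chromosome 17, 59893121 to 59950574) was recovered at 28.5 and 15.6 CPM by the PHGDH antibody, against 240.5 and 7.60 CPM by IgG. Both anti-PHGDH libraries lay between the IgG libraries, which differed 31.7-fold (932 and 12 reads). RPS6KB1 had a log2 fold change of -1.04 (SE 2.19; limma adjusted p = 0.747), which became 1.37 when IgG replicate 1 was left out. EIF4EBP1 (chromosome 8, 38030534 to 38060365) was recovered at 5251 and 2951 CPM by the PHGDH antibody, against 66.1 and 2044 CPM by IgG, so both anti-PHGDH libraries were above both controls. With 17675, 3590, 256 and 3228 reads, it had the most reads of the 10 in each library except IgG replicate 1, where RHEB, RPS6KB1 and TSC2 had more. Its log2 fold change was 3.41 (SE 1.17), with the smallest unadjusted p of the members in limma (0.0035) and a limma adjusted p of 0.677. The SE comes from the trend across genes; the residual SD of EIF4EBP1 itself was 2.50. Without IgG replicate 1 its log2 fold change was 0.95. The pseudogene EIF4EBP1P2 held at most 2 reads.

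**Figure D2:**
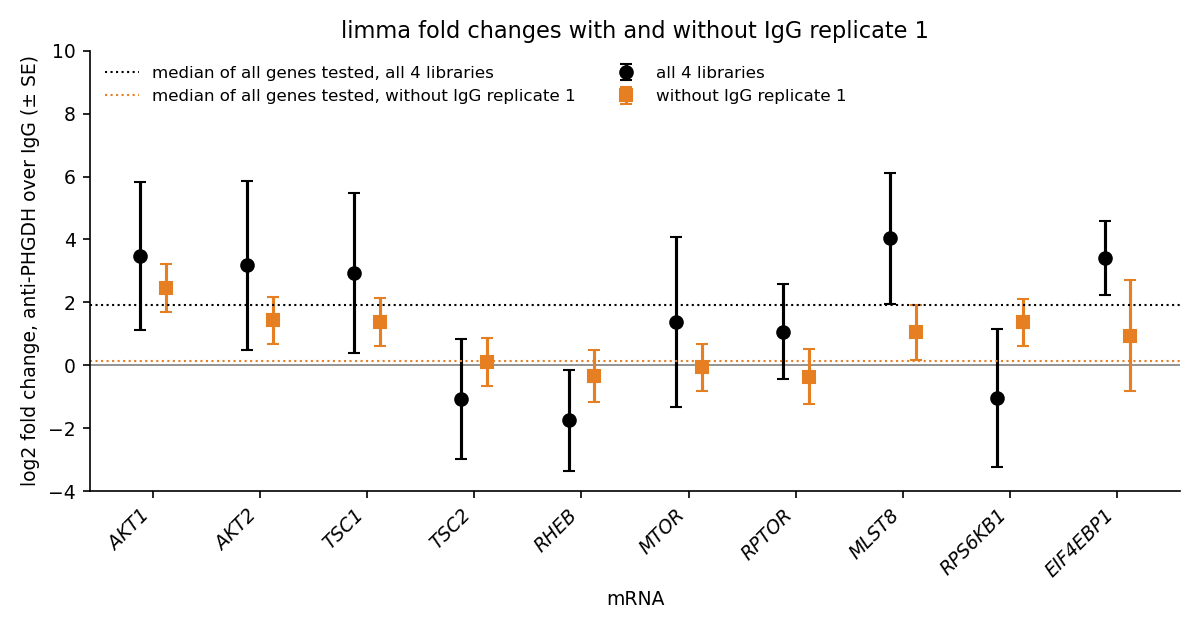
log2 fold change of anti-PHGDH over IgG on log2(CPM + 1), with its SE from limma, for the 10 mRNAs with all 4 libraries (black circles) and without IgG replicate 1 (orange squares). Dotted lines mark the median of all genes tested, 1.92 and 0.14, and TSC2, MTOR, RPTOR and RPS6KB1 change sign between the fits.

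In limma, 0 of the 10 members passed an adjusted p of 0.05 in either direction, where 0.0105% of the 9524 genes tested were called higher and 0 were called lower. At an unadjusted p under 0.05, 1 member (EIF4EBP1) was higher and 0 were lower, beside 2.74% and 0 of the genes tested. On the recovered reads, edgeR's quasi-likelihood test and DESeq2 called 0 members at an adjusted p of 0.05 and 0 at an unadjusted p under 0.05. At the adjusted threshold both called 0 of all 9524 genes tested, so that 0 is not a result about the members. Among all genes tested at an unadjusted p under 0.05, edgeR gave 21 higher (0.22%) and 162 lower (1.7%), and DESeq2 gave 89 (0.934%) and 149 (1.56%). The median log2 fold change over the 10 members was 2.16, against 1.92 over all genes tested; without IgG replicate 1 these were 0.99 and 0.14. Without IgG replicate 1, 0 of the 10 passed, beside 1.04% of the genes tested called higher and 0.0315% lower. Without IgG replicate 2, each of the 10 passed, 7 higher and 3 lower, beside 74.9% and 10.8% of all genes tested. In each fit without an IgG library, the remaining one is assumed to vary like the anti-PHGDH pair. An exact permutation test of 2 libraries against 2 cannot go below a two-sided p of 0.333.

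AKT1, AKT2 and TSC1 were the 3 of 10 members at least 2-fold higher in every pair of anti-PHGDH and IgG libraries on CPM + 1, beside 9.30% of the genes tested. AKT1's direction was fixed by the filter. Without genes that passed through the anti-PHGDH libraries alone, 2 of 9 members met the rule, beside 5.85% of the remaining 8922 genes, and 4 of 9 did not overlap in the higher direction, beside 34.2%. The nearest pairs gave 2.81-fold, 2.53-fold and 2.22-fold. None of the 10 was 2-fold lower in every pair, beside 0.084% of the genes tested. Groups did not overlap in the higher direction for 5 members (AKT1, AKT2, TSC1, MLST8 and EIF4EBP1), beside 38.3% of the genes tested, and in the lower direction for RHEB, beside 6.16%. The count of 3 members stayed at 3 without IgG replicate 1, beside 10% of the genes tested, and was 7 without IgG replicate 2, with MTOR, RPTOR, MLST8 and EIF4EBP1 added, when 75.7% of all genes tested met the rule. It was 5 without anti-PHGDH replicate 2, with MLST8 and EIF4EBP1 added, beside 21.9%, 0 after quantile normalization and 1 with a pseudocount of 5. With CPM recomputed without the mitochondrially encoded genes, whose share differed between the libraries, it was 3. With TMM scaling factors it was 2, and after centring each library on genes above 0 in all 4 libraries it was also 2. For these scalings, quantile normalization and the pseudocount of 5, the share over all genes tested was not counted. A change of the count there is thus not a result about the members.

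IgG replicate 1 held 0 to 7 reads of 6 members and 256 to 2605 reads of the other 4 (TSC2, RHEB, RPS6KB1 and EIF4EBP1). AKT1, AKT2, TSC1 and RPTOR were at 0 there, 4 of 10 beside 61.9% of the genes tested. The CPM of IgG replicate 2 would give 12.3, 39.3, 29.4 and 24.5 reads of these mRNAs at the depth of IgG replicate 1, where a count of 0 allows up to 3 reads or 0.774 CPM. TSC2, RHEB and RPS6KB1 were at least 2-fold higher in IgG replicate 1 than in each other library, 3 of 10 beside 12.2% of the genes tested. This last grouping was chosen after the values were seen. The IgG libraries differed from 4.17-fold (AKT1) to 63.2-fold (MLST8) across the members on CPM + 1, and the anti-PHGDH libraries from 1.10-fold (MTOR) to 3.82-fold (AKT1). Summed over the 10 mRNAs, the level was 5746 and 3287 CPM with anti-PHGDH and 1174 and 2311 CPM with IgG, of which EIF4EBP1 made up most outside IgG replicate 1. Without EIF4EBP1 the sums were 495 and 335 CPM with anti-PHGDH and 1108 and 267 CPM with IgG, and the highest of the 4 was then IgG replicate 1.

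Within replicate number 2, both libraries detected each member. The ratio of CPM was 3.38 for AKT1 (95% exact interval 1.13 to 12.1), 2.68 for AKT2 (1.43 to 5.21) and 2.38 for TSC1 (1.13 to 5.28). RPS6KB1 had 2.06 (0.947 to 4.64), EIF4EBP1 1.44 (1.38 to 1.51) and MLST8 1.42 (1.11 to 1.83). TSC2, MTOR and RHEB were near equal, with 1.01 (0.673 to 1.51), 1.01 (0.565 to 1.77) and 0.933 (0.724 to 1.20). RPTOR had 0.649 (0.174 to 2.08), and at 5 and 10 reads no difference was detectable. The intervals of AKT1, AKT2, TSC1 and RPS6KB1 overlap each other and those of EIF4EBP1 and MLST8. Such overlap is not a test between genes, and the order among these 6 was not tested. The intervals cover counting error in these 2 libraries and say nothing of the spread between precipitations. By the 2-fold rule on CPM + 1, 3 members were higher within number 2, beside 12.5% of the genes tested. AKT1 is 1 of the 3, with its direction fixed by the filter. By the same rule 0 were lower, beside 1.97%.

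The ratios of anti-PHGDH replicate 1 to IgG replicate 2 share their denominator with those just given, so the sets are placed side by side and not compared. AKT1 was 13.8 times as high (5.78 to 43.1), RPS6KB1 3.75 times (2.05 to 7.52), TSC1 3.32 times (1.81 to 6.69), AKT2 3.08 times (1.81 to 5.58), MLST8 3.02 times (2.50 to 3.68) and EIF4EBP1 2.57 times (2.47 to 2.67). RHEB was lower, at a ratio of 0.653 (0.528 to 0.809). Both anti-PHGDH libraries exceeded IgG replicate 2 for 7 of the 10 members, beside 43.9% of the genes tested, a count that rests on that 1 control library. The 7 include AKT1, whose direction against either IgG library was fixed by the filter. They also include TSC2, whose ratios of 1.01 and 1.14 both have intervals that span 1. Within replicate number 1, AKT1, AKT2, TSC1, MTOR, RPTOR, MLST8 and EIF4EBP1 were at least 2-fold higher with anti-PHGDH, beside 76.6% of the genes tested. TSC2, RHEB and RPS6KB1 were at least 2-fold lower there, beside 15.3%.

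**Figure D3:**
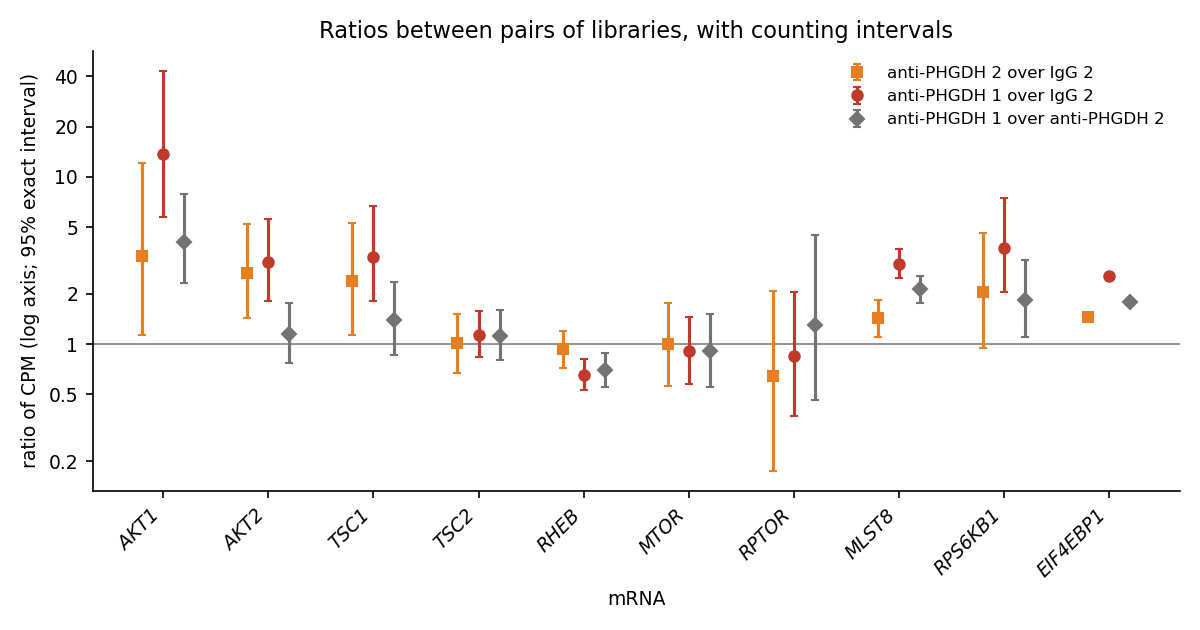
Ratio of CPM between pairs of libraries on a log axis, with 95% exact intervals for counting error, for anti-PHGDH 2 over IgG 2 (orange), anti-PHGDH 1 over IgG 2 (red) and anti-PHGDH 1 over anti-PHGDH 2 (grey). The interval for AKT1, from 5 reads in IgG 2, reaches from 5.78 to 43.1 in red, while that of EIF4EBP1, from 3228 reads, is narrower than its symbol.

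The wider pathway list held 79 further genes, from insulin and IGF receptors to mTORC1 effectors, of which 63 passed the filter. In limma 0 of the 63 passed an adjusted p of 0.05 in either direction, with 4 higher and 0 lower before adjustment (unadjusted p under 0.05), beside 2.74% and 0 of the genes tested. Their median log2 fold change was 1.88, against 1.92 over all genes tested, and 0.36 against 0.14 without IgG replicate 1. By the 2-fold rule 9 of the 63 were higher in every pair, beside 9.30% of all genes tested, and 0 were lower. The 9 were the insulin receptor INSR, the PI3-kinase regulatory subunit PIK3R2, the mTORC1 inhibitor AKT1S1 (PRAS40), NPRL3, ITFG2, CASTOR2, the AKT substrate GSK3A, EIF4EBP2 and LARP1. ITFG2 passed the filter through the anti-PHGDH libraries alone, which fixed its direction; without such genes the count was 8 of 61, beside 5.85% of the genes tested. The 9 included 3 of 14 genes of the group of GATOR complexes, KICSTOR and amino acid sensors, 3 of 18 AKT and mTORC1 effectors, 2 of 9 receptor and PI3-kinase genes and 1 of 4 other mTOR or TSC complex subunits. None of 11 genes of the Rag GTPases, Ragulator and folliculin, and none of 7 AMPK and stress genes, met the rule. With so few genes in each group and 9.30% of all genes tested meeting the rule, these counts set no group apart. Differences between the groups were not tested.

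Of the 29 listed genes above 0 in all 4 libraries, EIF4EBP2, LARP1 and PIK3R2 had the highest fold changes. EIF4EBP2, which encodes a second 4E-BP repressor, was at 234, 172, 1.29 and 77.9 CPM (log2 fold change 3.90, SE 1.96; limma adjusted p = 0.677). LARP1, which binds the 5′ ends of mRNAs for ribosomal proteins downstream of mTORC1, was at 209, 134, 1.81 and 55.7 CPM (log2 fold change 3.74). PIK3R2 was at 98.3, 64.1, 1.81 and 24.7 CPM (log2 fold change 3.24). For each of these 3, both anti-PHGDH libraries were above both controls, and the log2 fold changes were 1.35, 1.57 and 1.65 without IgG replicate 1. That order held for 28 listed genes and for 38.3% of all genes tested. These 3, and the 3 lowest below, were picked by fold change in these same libraries, so their patterns are not separate support. The lowest fold changes belonged to the Rag GTPase RRAGA, the sestrin SESN3 and the autophagy initiation factor RB1CC1, at -2.48, -2.41 and -1.97. Leaving out IgG replicate 1 gave -0.50, 0.67 and 0.11, so SESN3 and RB1CC1 changed sign. These 3 were at 303, 842 and 791 CPM in IgG replicate 1 and at no more than 18.4, 18.9 and 55.9 CPM in any other library, the pattern of TSC2, RHEB and RPS6KB1.

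NPRL3 and GSK3A are named after their values were seen, since they were the 2 listed genes past an adjusted p of 0.05 without IgG replicate 1, when 1.04% of the genes tested were called higher. That fit assumes that the lone IgG library varies like the anti-PHGDH pair. NPRL3 encodes a subunit of GATOR1, which shuts off the Rag GTPases when amino acids are scarce. It was recovered at 155 and 118 CPM by the PHGDH antibody, against 0 and 8.23 CPM by IgG, 12.9-fold on CPM + 1 between the nearest libraries. NPRL3 had a log2 fold change of 5.49 (SE 2.45; limma adjusted p = 0.677) with all libraries and 3.89 when IgG replicate 1 was left out (limma adjusted p = 7e-04). GSK3A was recovered at 218 and 70.7 CPM by the PHGDH antibody, against 0 and 9.50 CPM by IgG. GSK3A had a log2 fold change of 5.27 (SE 2.46; limma adjusted p = 0.677) with all libraries and 3.58 when IgG replicate 1 was left out (limma adjusted p = 0.0023). Within replicate number 2 the ratio of CPM was 14.4 for NPRL3 (95% exact interval 8.15 to 27.7) and 7.44 for GSK3A (4.27 to 13.9). For PHGDH itself it was 3.32 (3.05 to 3.62). Both libraries of these ratios were also in the fit by which NPRL3 and GSK3A were picked, so the ratios are not separate support.

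**Figure D4:**
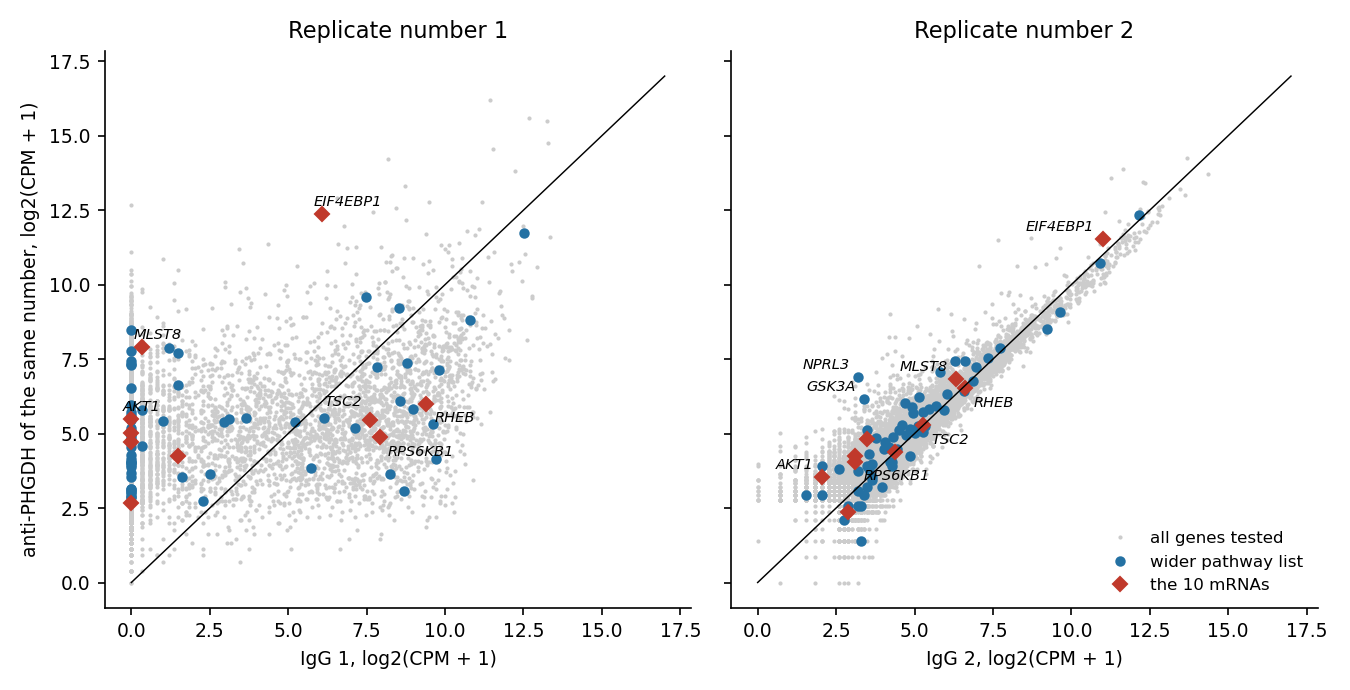
log2(CPM + 1) with anti-PHGDH against IgG of the same replicate number, for all genes tested (grey), the wider pathway list (blue) and the 10 mRNAs (red); the line marks equal levels. In number 1 the IgG library is at 0 for 4 of the 10 mRNAs and high for TSC2, RHEB and RPS6KB1. In number 2, AKT1, AKT2 and TSC1 are at least 2-fold higher with anti-PHGDH on CPM + 1, and the other members lie nearer the line.

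The median profile of the 10 mRNAs over the 4 libraries was 5.23, 4.59, 0.91 and 3.92 on the log2(CPM + 1) scale. In IgG replicate 1 the members ran from 0 CPM (AKT1) to 672 CPM (RHEB), so this median stands for no pattern that they share. Among the other genes tested, those nearest to it by Euclidean distance over the 4 libraries were ATRN, INSR and ARID1B, at distances of 0.379, 0.383 and 0.404. The distance also takes in the level of each gene, which depends on transcript length, and the members' own distances were not computed. INSR, the receptor at the top of the pathway, was recovered at 42.2 and 28.0 CPM by the PHGDH antibody, against 1.03 and 12.7 CPM by IgG. Both anti-PHGDH libraries were above both controls, and within replicate number 2 the INSR ratio was 2.21 (95% exact interval 1.23 to 4.05). INSR was picked for its likeness in these same 4 libraries, so its order and ratio are not separate support.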

How the data were processed

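RNA from anti-PHGDH and IgG precipitates of HEK293T cells was sequenced in paired reads of 150 bases, per the labels' protocols. The authors deposited 1 CPM table per library. STAR 2.5.4b, featureCounts and hg38 are named in the submitters' processing notes; annotation, strand use, duplicate handling and filters are not given in the sources used here. CPM values were whole multiples of 1 read for at least 99.98% of values above 0, within 0.0006 CPM; no member had an exception. Reads that are PCR copies may be counted separately.

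limma 3.58.1 (R 4.3.3) was run on log2(CPM + 1) two-sided, on the 9524 genes that reached 5 CPM in 2 or more libraries, with an intensity trend and Benjamini-Hochberg adjustment over all of them. The 10 members passed the filter. The empirical Bayes prior took infinite weight, so SEs follow the trend and not a gene's own spread. Fold changes of low genes are understated, and values of 0 make them depend on the pseudocount. edgeR 4.0.16 and DESeq2 1.42.0 were run on recovered reads. Ratio intervals are exact (Clopper-Pearson, 95%). The scripts were tested on simulated data.

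The members, lists and tests were chosen with earlier results of these data known. Beyond the members, named genes were the 3 highest and 3 lowest fold changes among listed genes above 0 in all libraries, and the 3 nearest profiles. The listed SAMTOR was matched as BMT2. Gene positions come from RefSeq, GRCh38.p14.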

Additional observations from a re-analysis of the deposited data

How the results depend on the processing

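The number of members past the adjusted threshold, 0 in each direction, was also 0 in every alternative of pseudocount, filter, scaling, empirical Bayes setting and count model run. The count models called 0 of all genes tested there, so their 0 is not a result about the members. Leaving out 1 library gave 0 to 7 higher and 0 to 3 lower, with both highest counts without IgG replicate 2. Members 2-fold higher in every pair (3) numbered 1 when the pseudocount was 5 and 1 under a filter of 20 CPM (which 6 members pass). They numbered 0 after quantile normalization, 0 at 4-fold, and 3 to 7 without 1 library. Members 2-fold lower (0) were 0 to 3. The share of all genes tested was not counted under another pseudocount, filter, scaling or fold, here or for the listed genes below. The median log2 fold change of the members (2.16) was -0.087 after quantile normalization, when that of all genes tested was -0.050, and lay between 0.99 without IgG replicate 1 and 3.65 without IgG replicate 2. Over all genes tested the median was 1.77 with TMM factors and 2.16 without mitochondrial genes. With a pseudocount of 0.1 the members' median, 3.00, lay below that of all genes tested, 3.38. Under a filter of 20 CPM these medians were 2.16 and 2.13.

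Without 1 library the log2 fold changes ran from -2.24 to 0.099 for TSC2, from -0.062 to 2.82 for MTOR, from -0.36 to 2.51 for RPTOR and from -3.45 to 1.37 for RPS6KB1. MTOR was -0.79 and RPTOR -0.81 after quantile normalization. The other 6 members kept their sign in every alternative, though the filter had fixed that of AKT1 on CPM. The cause of the sign changes was not tested.

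Listed pathway genes called higher (0) were 0 to 45 without 1 library and called lower (0) 0 to 9, with both highest counts without IgG replicate 2, when 74.9% and 10.8% of all genes tested were called. The number 2-fold higher (9) was 14 at 1.5-fold, 2 at 4-fold and 9 to 45 without 1 library; the number 2-fold lower (0) was 1 at 1.5-fold and 0 to 10 without 1 library. The highest of these counts also came without IgG replicate 2, when 75.7% and 12.7% of all genes tested met the rule. Over all genes, the 1 call became 11 when the pseudocount was 0.1, 3 when the filter was 1 CPM, 6 when it was dropped, 3 under a robust trend and 0 under no trend. With the replicate block 4 genes were called and 0 members (EIF4EBP1 at adjusted p = 0.196 in limma), and the block changed no call of a member. The deviations of same-numbered libraries had r = 0.0058 over 9524 genes. With 61.9% of these genes at 0 in IgG replicate 1, that value says little about pairing. Number 1 was the deeper library of each antibody, at 3365837 and 3875746 reads against 1216477 and 1579430. The numbers were not taken to pair the libraries.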
